A study of Mus musculus with 5 samples.

Results

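Genes of 8 solute carrier families that carry amino acids or related small molecules across membranes were compared between Akt/Notch liver tumors with and without late Prox1 overexpression. They are the numbered members of the mouse families Slc1a, Slc3a, Slc6a, Slc7a, Slc16a, Slc36a, Slc38a and Slc43a, with a mean normalized count of at least 10 over the 5 libraries. Of 75 genes with such a symbol, 49 met that level, among 17105 genes tested and 55397 genes listed. The name amino acid carriers is broader than the cargo of some members. Most of the 11 Slc16 members move lactate and other monocarboxylates, Slc6a8 moves creatine, Slc6a4 serotonin and Slc43a3 nucleobases, and counts are therefore also given for the 38 members outside Slc16.

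Amino acids are charged or polar and need carrier proteins to enter or leave a cell. The families differ in what drives the transport. Slc1, Slc6 and Slc38 carriers mostly use the sodium gradient to pull amino acids in, Slc36 and several Slc16 carriers use protons, and many Slc7 carriers exchange one amino acid for another and reach the cell surface only when bound to a heavy chain of the Slc3 family. Hepatocytes take up glutamine, alanine, glycine and arginine from portal blood to feed urea synthesis, gluconeogenesis and ammonia clearance, while dividing cells rely on exchangers such as that of Slc7a5 for leucine and other large neutral amino acids.

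The tumors came from female C57BL/6N mice injected at 8 weeks of age. A hydrodynamic tail vein injection, which forces plasmid solution into hepatocytes, delivered a CMV-driven Sleeping Beauty transposase (4 µg) and transposons in which the EF1a promoter drives AKT or the NOTCH intracellular domain NICD followed by rtTA (10 µg). A further transposon (10 µg) was pT3-Tre-FLAG-mmProx1-IRES-GFP in Prox1 OE mice and pT3-Tre-IRES-GFP in Control mice. Both groups ate a 6.25% doxycycline diet from day 21, which switches on the Tre promoter, so that AKT, NICD, rtTA, GFP and doxycycline were common to both groups and only Prox1 differed. Tissue was collected after a week of overexpression (week 3 to week 4) or at a humane endpoint, and the labels do not say which applied to which tumor. There were 2 Control and 3 Prox1 OE libraries. The study describes the sequenced samples as coming from mice, and the labels name no mouse for a library, so p-values measure the spread between these samples.

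Library totals overlapped between the groups, with 48740863 to 56629477 reads. The size factors did not, as 1 read was worth 0.822 and 0.848 normalized counts in Control. In Prox1 OE replicates 1 to 3 it was worth 1.02, 1.18 and 1.16. The 10 most abundant genes held 9.37% and 10.1% of the reads in Control libraries, and between 13.2% and 15.1% in the Prox1 OE libraries. Normalized counts of Prox1 itself were 4153 and 4664 in Control, against 48090, 11113 and 8231 in the overexpressing tumors. All 3 were above both Control values, replicate 1 stood far above the other two, and the log2 fold change of 1.90 did not pass the test (limma adjusted p = 0.061).

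Carriers differed between the groups in both directions. In the limma fit over all 17105 genes, 17 of the 49 carriers were higher in Prox1 OE, 11 were lower and 21 did not pass an adjusted p of 0.05. The counts were 7 higher and 4 lower without Control replicate 1, and 10 and 4 without Control replicate 2. The called share was 57.1% against 33.3% of all genes tested, with 34.7% higher against 17.1% and 22.4% lower against 16.2%. One carrier, Slc6a4, reached the limit on low counts only through its Prox1 OE libraries, and among the other 48 carriers 16 were higher and 11 lower. Without Slc16, 12 of 38 carriers were higher and 10 lower. A change of at least 1 on the log2 scale was reached by 9 higher carriers (8 without Slc6a4) and 7 lower ones, where 8.35% of all genes rose and 5.55% fell by as much. Values of the groups did not overlap for 37 carriers (75.5% against 63.3% of all genes tested). They lay above Control for 23 (22 without Slc6a4), where 30.9% of all genes did, and below it for 14, where 32.4% did. The median log2 fold change was 0.19 for the 49 carriers, 0.12 without Slc6a4, -0.06 for the 38 carriers outside Slc16 and -0.02 for all genes. Scaling by total reads in place of size factors gave a median over all genes of -0.44 and lowered the share of calls that were higher from 51.4% to 17.8%. Under it 11 carriers were higher and 18 lower. Values below use the size factors of the deposited table unless total reads are named.

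**Figure D1:**
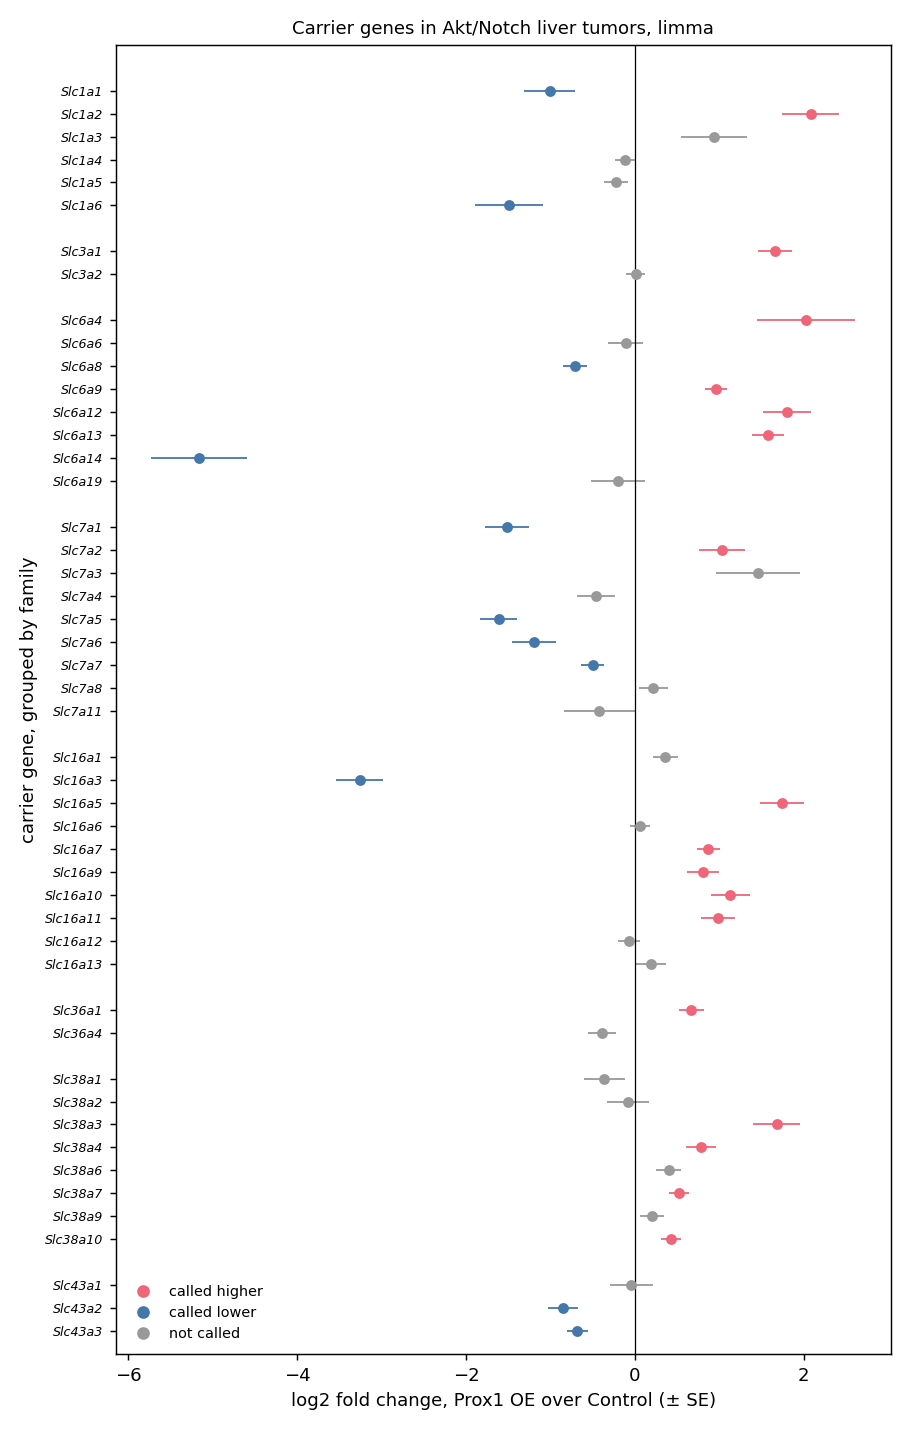
Log2 fold change of Prox1 OE over Control for 48 of the 49 carriers, grouped by family, with bars of 1 standard error from limma and colors for the call. The carrier not drawn did not pass the test. The 17 carriers called higher lie between 0.43 (Slc38a10, at -0.003 with total reads as library size) and 2.08, and Slc6a14 (-5.16) and Slc16a3 (-3.26) lie farthest to the left.

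Markers of cell types moved with these groups. Of 11 hepatocyte markers 9 were higher by limma (median log2 fold change 1.72), and their summed normalized counts were 1166000 to 1713000 in Control and 3494000 to 5080000 in Prox1 OE. Without Control replicate 1 limma called 0 of the 11 (6 at an unadjusted p under 0.05, median 1.32), while edgeR called 11 with all 5 libraries, and 5 were called without Prox1 OE replicate 2. Of 10 cholangiocyte markers 8 were lower (median -1.18), with sums of 765200 to 834100 against 526200 to 710700, and 4 were lower without Control replicate 1 and 5 without Control replicate 2. Most of each of these sums was Spp1, at 784750 and 712010 in Control and 587970, 688820 and 509320 in Prox1 OE. Spp1 did not pass the test (log2 fold change -0.34, limma adjusted p = 0.51). Krt19 went from 8442 and 10790 to 1643, 1968 and 1785. All 11 hepatocyte and all 10 cholangiocyte markers had reads in every library of these tumors, which start from hepatocytes and take on bile duct features. Macrophage markers summed to 9594 to 10930 against 15160 to 21960 (2 of 8 higher), T and NK cell markers to 200.9 to 243.2 against 403.9 to 643.1 (4 of 6 higher), stellate cell and fibroblast markers to 122500 to 126900 against 67950 to 80320 (4 of 8 lower, 1 higher), and proliferation markers to 31130 to 45230 against 17350 to 23330 (5 of 6 lower). These counts changed when 1 library was left out. For T and NK cells limma called 0 without Control replicate 1, Control replicate 2 or Prox1 OE replicate 2 (4, 3 and 4 at an unadjusted p under 0.05), while edgeR called 4 and DESeq2 6 with all 5 libraries. For proliferation it called 0 without Control replicate 1 (2 at an unadjusted p under 0.05, median -0.52), 3 without Prox1 OE replicate 2 or 3 and 2 without the trend, while edgeR called 5. For macrophages it called 0 without Control replicate 1 or without the trend (4 and 2 at an unadjusted p under 0.05) and 4 without Control replicate 2, while edgeR called 2 and DESeq2 5, and for stellate cells and fibroblasts 2 were lower without Control replicate 1. Of the measured markers, 2 of 6 were higher for endothelium, 1 of 5 for B and plasma cells and 1 of 4 for red cells (4 by DESeq2), and the 4 neutrophil markers did not pass the test. Without Prox1 OE replicate 2 limma called 0 for B and plasma cells and 2 for red cells. With total reads as library size 3 endothelium markers were also lower. Without Control replicate 1 the median log2 fold change went from 0.09 to -0.04 for endothelium and from 0.97 to 0.55 for red cells. The part of these markers in the carrier values was not tested, and in bulk tissue fewer cells of a type and less RNA per cell cannot be told apart.

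Slc38 carriers take up glutamine, alanine and other small neutral amino acids with sodium, and Slc38a3 and Slc38a4 are the characteristic members of hepatocytes. Of 8 measured members, 4 were higher and the other 4 did not pass the test. Slc38a3 (ENSMUSG00000010064, chr9:107650634-107669530), the system N carrier for glutamine, histidine and asparagine, had 3669 and 6637 normalized counts in Control and 13588, 13977 and 20784 in the Prox1 OE libraries. The groups did not overlap, with means of 5153 ± 2100 (SD, n = 2) and 16116 ± 4050 (SD, n = 3). Slc38a3 rose by 1.68 ± 0.28 (SE) on the log2 scale (limma adjusted p = 0.0055). Slc38a4 (chr15:96994820-97055956), the liver's system A carrier, had 10094 and 11609 against 17028, 16449 and 23081 normalized counts. All 3 Prox1 OE values were above both Control values, and Slc38a4 rose by 0.78 ± 0.18 (SE) on the log2 scale (limma adjusted p = 0.015).

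Slc38a7, a glutamine and asparagine carrier of the lysosome, had 829.8 and 883.3 normalized counts in Control and 1241, 1161 and 1275 in Prox1 OE and rose by 0.52 on the log2 scale (limma adjusted p = 0.017). Slc38a10 had 7019 and 7302 against 10587, 9518 and 8865 normalized counts and rose by 0.43 (0.033). The groups did not overlap for either. These smaller differences depended on scaling and on single libraries. With total reads as library size Slc38a4, Slc38a7 and Slc38a10 had log2 fold changes of 0.35, 0.09 and -0.003, none of them called, while Slc38a3 kept 1.25 (limma adjusted p = 0.0034). Without Control replicate 1 the values for Slc38a4, Slc38a7 and Slc38a10 were 0.68, 0.47 and 0.40, and without Control replicate 2 they were 0.88, 0.56 and 0.46, none of them called. Slc38a10 also lost its call without Prox1 OE replicate 2 (0.44, limma adjusted p = 0.073). Slc38a2, the system A carrier of most tissues, had 5928 and 6874 against 4165, 6682 and 7894 normalized counts, so its groups overlapped (log2 fold change -0.08, limma adjusted p = 0.83). Slc38a1, Slc38a6 and Slc38a9 did not pass the test either, at -0.36, 0.40 and 0.20. Slc38a1 was called lower with total reads as library size (-0.79, adjusted p = 0.042), and Slc38a6 was called higher by DESeq2 (0.41, adjusted p = 0.041).

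Slc6 carriers couple sodium and chloride to the uptake of glycine, taurine, betaine, creatine and neurotransmitters. Of 8 measured members 4 were higher and 2 lower. Slc6a13 (ENSMUSG00000030108, chr6:121300227-121337733), which carries taurine and GABA in liver, had 3344 and 4237 normalized counts in Control and 9572, 10789 and 13932 in Prox1 OE. Its neighbor Slc6a12 (chr6:121343076-121365775), the betaine and GABA carrier, had 336 and 541.7 against 1242, 1281 and 2072. The lowest Prox1 OE library was 2.26 times the higher Control library for Slc6a13 and 2.29 times for Slc6a12. The log2 fold changes were 1.58 ± 0.19 for Slc6a13 (SE, limma adjusted p = 0.0026) and 1.80 ± 0.28 for Slc6a12 (SE, limma adjusted p = 0.0044), and both calls were kept without any 1 of the 5 libraries. The genes lie on the plus strand of mm10 5342 bases apart, with no protein-coding gene between them.

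Slc6a9, the glycine carrier, had 798.6 and 1002 against 1768, 1739 and 1708 normalized counts, with an SD of 29.8 among the Prox1 OE libraries. It rose by 0.96 ± 0.13 on the log2 scale (SE, limma adjusted p = 0.0033) and was called without any 1 library. Slc6a4, the serotonin carrier, was near the limit of detection at 6.573 and 1.695 against 15.34, 16.52 and 20.83 normalized counts, and it was the only member with a group mean under 10, so that it entered the test through Prox1 OE. Its log2 fold change of 2.03 (limma adjusted p = 0.034) was 2.77 without Control replicate 1 and 1.28 without Control replicate 2, and the call was lost in the latter (0.17) and without Prox1 OE replicate 2 (2.06, 0.084) or 3 (1.90, 0.094).

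Slc6a14 (ENSMUSG00000031089, chrX:21714896-21742355), a concentrative carrier of neutral and cationic amino acids, fell by the most of all carriers. It had 215.3 and 793.4 normalized counts in Control and 14.31, 7.08 and 11.57 in Prox1 OE. The Control libraries differed 3.69-fold from each other, yet the lower one was 15 times the highest Prox1 OE library. The log2 fold change reached -5.16 ± 0.57 (SE, limma adjusted p = 0.0024), and it was -6.10 without Control replicate 1 and -4.22 without Control replicate 2, called in both. Slc6a8, the creatine carrier, had 5293 and 5544 against 3520, 3646 and 2824 normalized counts and fell by 0.71 on the log2 scale (limma adjusted p = 0.0091). Its call was lost without Control replicate 1 (-0.74) or 2 (-0.68), each at an adjusted p of 0.076. Slc6a6, the taurine carrier of most tissues, and Slc6a19, a neutral amino acid carrier of gut and kidney, had overlapping groups and log2 fold changes of -0.11 and -0.20 that did not pass the test.

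Promoter sequence of Slc6a13, Slc6a12 and Slc3a1 is shown because these genes rose by more than 1 on the log2 scale, kept their calls whichever library was left out, and hold letters of motifs that bear on these tumors. They were chosen for display after the matches were seen. RBPJ is the DNA-binding partner of the NOTCH intracellular domain, which both groups received, and HNF4A is a hepatocyte regulator. RefSeq windows from 250 bases before to 50 bases after a start site (GRCm38.p6) were on hand for 34 of the 49 carriers, in 51 windows. The RBPJ core GTGGGAA, on either strand, was in windows of 3 of these 34 genes (Slc6a12, Slc6a13 and Slc6a19), 8.82% against 7.25% of 27025 genes with a window. The HNF4A letters CAAAGTCCA were in 1 of 34, Slc3a1, against 0.555% of all genes. No match overlapped another in the stretches printed. The stretches below are the 150 bases before the start site on the gene's strand, 5′ to 3′, with the matched letters in capitals. Slc6a13 holds them in 2 of its 3 windows, and Slc6a12 has 5 windows, some of which overlap, that hold a single site.
Slc6a13, chr6:121300590-121300739, plus strand: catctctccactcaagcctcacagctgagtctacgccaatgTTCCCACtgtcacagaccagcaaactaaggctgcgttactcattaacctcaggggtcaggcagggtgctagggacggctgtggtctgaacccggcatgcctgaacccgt
Slc6a13, chr6:121303489-121303638, plus strand: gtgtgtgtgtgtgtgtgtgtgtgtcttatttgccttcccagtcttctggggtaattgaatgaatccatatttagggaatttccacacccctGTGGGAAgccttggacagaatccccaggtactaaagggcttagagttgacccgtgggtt
Slc6a12, chr6:121343106-121343255, plus strand: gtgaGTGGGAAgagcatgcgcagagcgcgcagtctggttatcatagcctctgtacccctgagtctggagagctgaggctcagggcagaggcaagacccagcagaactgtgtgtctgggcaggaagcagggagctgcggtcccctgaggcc
Slc3a1, chr17:85028197-85028346, plus strand: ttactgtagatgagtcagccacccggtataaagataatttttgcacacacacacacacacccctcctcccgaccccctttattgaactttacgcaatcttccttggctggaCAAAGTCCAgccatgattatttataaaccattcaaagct
The match lies 109 and 59 bases before these start sites of Slc6a13, 146 bases before that of Slc6a12 and 39 bases before that of Slc3a1. These are matches of letters and no binding was measured here.

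Slc1 carriers hold the glutamate transporters and the neutral exchangers Slc1a4 and Slc1a5. Slc1a2 (ENSMUSG00000005089, chr2:102658659-102790784), the glutamate carrier of glia and of hepatocytes near the central vein, was higher in Prox1 OE. Its normalized counts were 426.4 and 562 in Control and 1295, 2205 and 3106 in Prox1 OE, with no overlap. The means were 494.2 ± 95.9 (SD, n = 2) and 2202 ± 905 (SD, n = 3), and the log2 fold change of 2.08 ± 0.34 (SE, limma adjusted p = 0.0049) became 1.88 without Control replicate 1 (0.051). The other glutamate carriers that passed the test went the other way. Slc1a1 had 140.5 and 183.1 against 109.4, 66.08 and 68.28 (log2 fold change -1.01, limma adjusted p = 0.037), and Slc1a6 had 27.93 and 41.54 against 12.27, 10.62 and 11.57 (-1.49, 0.026). Both lower calls were lost without either Control library (Slc1a1 -1.20 and -0.82, Slc1a6 -1.77 and -1.21) and without Prox1 OE replicate 2 (-0.88 and -1.44) or 3 (-0.91 and -1.50). Slc1a1 shares 2631 exon bases with 4430402I18Rik on the opposite strand, a gene of like abundance (means of 113 and 128), and whether counting used strand is not given in the sources used here. Slc1a3, a glial glutamate carrier at a mean of 22.2, was at 0.94 (0.1) and passed, just under the threshold, only without Prox1 OE replicate 1 (1.14) among the fits that leave out a library, and also in limma without the trend (0.94, adjusted p = 0.046).

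Neither neutral exchanger passed the test. Slc1a5, the glutamine exchanger of many proliferating cells, had 725.4 and 828.2 against 690.2, 671.4 and 629.6 normalized counts (log2 fold change -0.22, limma adjusted p = 0.24). Slc1a4, which exchanges alanine, serine and cysteine, was at -0.12 (0.47). Per kilobase of exon, the ratio of Slc1a5 to Slc1a4 was 0.611 and 0.651 in Control and 0.571, 0.606 and 0.588 in Prox1 OE, so that the lower Control ratio lay just above the highest Prox1 OE ratio. With total reads as library size both were called lower, Slc1a4 at -0.55 and Slc1a5 at -0.66.

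The heavy chains of the Slc3 family differed from each other. Slc3a1 (ENSMUSG00000024131, chr17:85028376-85064236), the heavy chain for cystine and dibasic amino acids in kidney and gut, had 211.1 and 299.2 normalized counts in Control and 912.1, 687.9 and 798.6 in Prox1 OE. All Prox1 OE libraries were above both Control libraries, and the log2 fold change of 1.66 ± 0.20 (SE, limma adjusted p = 0.0027) was called without any 1 library. Its light chain Slc7a9 was nearly undetected, at a mean of 1.72 and at most 5 reads in a library. Slc3a1 shares 601 exon bases with Prepl on the opposite strand, which is more abundant (mean 2130). Slc3a2, the heavy chain of Slc7a5 to Slc7a8 and Slc7a11, had 3575 and 3918 against 3534, 3909 and 3892 (log2 fold change 0.01, limma adjusted p = 0.95), and with total reads as library size it was called lower at -0.42 (0.027).

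Of the 5 measured light chains that pair with Slc3a2, 3 fell. Slc7a5 (ENSMUSG00000040010, chr8:121881150-121907694), the exchanger of leucine and other large neutral amino acids, had 520.1 and 653.5 normalized counts in Control and 238.2, 167.6 and 171.3 in Prox1 OE. The lower Control library was 2.18 times the highest Prox1 OE library, and the log2 fold change came to -1.61 ± 0.22 (SE, limma adjusted p = 0.0032), called without any 1 library. Slc7a6 and Slc7a7 exchange cationic for neutral amino acids. Slc7a6 had 861.8 and 885 against 506.1, 408.3 and 268.5 (log2 fold change -1.19, limma adjusted p = 0.013), and Slc7a7 had 1421 and 1222 against 929.4, 1037 and 847.2 (-0.50, 0.034). Neither call was kept without Control replicate 1 (-1.21 and -0.39) or 2 (-1.17 and -0.60), and Slc7a7 also lost its call without Prox1 OE replicate 3 (-0.42). Slc7a7 shares 232 exon bases with the more abundant Oxa1l on the opposite strand.

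Slc7a8, a further exchanger of large and small neutral amino acids, had overlapping groups at 600.6 and 506.9 against 755.6, 584.1 and 607.6 (log2 fold change 0.22, limma adjusted p = 0.34). Slc7a11, the cystine-glutamate exchanger, was low in all libraries at 35.33 and 42.38 against 35.79, 17.7 and 37.04 (-0.42, 0.47). Per kilobase of exon, Slc7a5 was at 0.138 and 0.159 of Slc3a2 in the Control libraries and at 0.0642, 0.0408 and 0.0419 in Prox1 OE. The ratio for Slc7a6 went from 0.186 and 0.174 to 0.111, 0.0806 and 0.0533, and that for Slc7a7 from 0.423 and 0.332 to 0.28, 0.282 and 0.232. A ratio within a library does not depend on the scaling, and for these 3 light chains the groups did not overlap. For Slc7a8 they did, at 0.118 and 0.0912 against 0.151, 0.105 and 0.11.

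**Figure D2:**
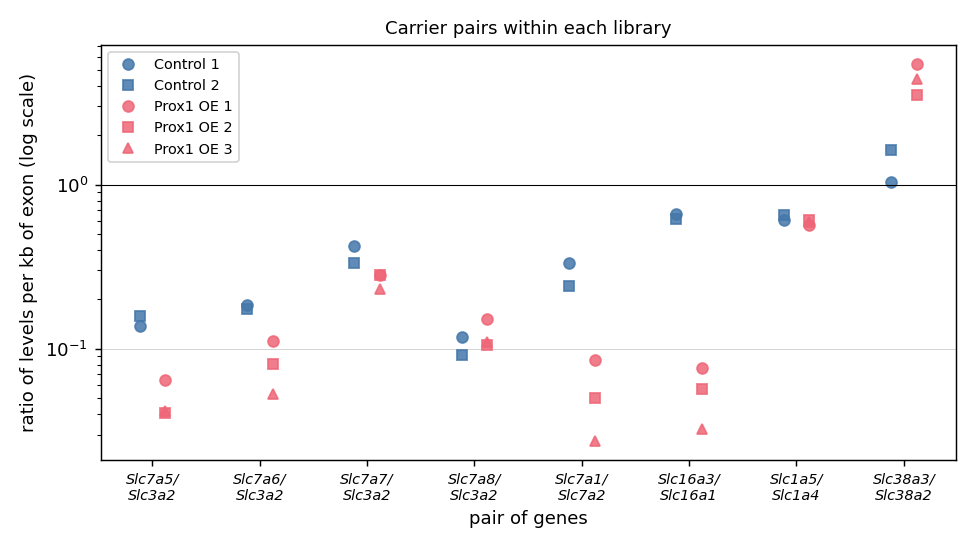
Ratio of the level per kilobase of exon between 2 carrier genes in each of the 5 libraries, on a log axis, with the black line at a ratio of 1. Prox1 OE points lie below both Control points for Slc7a5, Slc7a6 and Slc7a7 over Slc3a2, for Slc7a1 over Slc7a2 and for Slc16a3 over Slc16a1, and above them for Slc38a3 over Slc38a2.

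The cationic amino acid carriers of the Slc7 family, which need no heavy chain, moved in opposite directions. Slc7a1, the arginine and lysine carrier of most tissues outside the liver, had 742.7 and 877.3 against 393.7, 272.6 and 211.8 normalized counts, a log2 fold change of -1.51 ± 0.26 (SE, limma adjusted p = 0.0061) that was -1.39 without Control replicate 2 (0.054). Slc7a2, the cationic carrier of hepatocytes, had 1760 and 2875 against 3639, 4300 and 6157, a log2 fold change of 1.03 ± 0.27 (SE, limma adjusted p = 0.025). The call on Slc7a2 was lost without Control replicate 1 (0.67, 0.19) or Prox1 OE replicate 2 (1.07, 0.07), with total reads as library size (0.60, 0.052) and in limma without the trend (1.03, 0.071). Per kilobase of exon, Slc7a1 was at 0.334 and 0.242 of Slc7a2 in Control and at 0.0857, 0.0502 and 0.0273 in Prox1 OE, without overlap. Slc7a3, a related carrier known from brain, had 23.83 and 34.75 against 149.3, 79.06 and 45.14 and did not pass the test (log2 fold change 1.46, limma adjusted p = 0.058). It passed with edgeR (1.65, adjusted p = 0.049), with DESeq2 (1.65, 0.011) and without Prox1 OE replicate 3 (1.88, 0.022). Slc7a4, whose substrate is unsettled, did not pass at -0.46 and was called lower with total reads as library size (-0.89, adjusted p = 0.025).

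Slc43 carriers move large neutral amino acids without a sodium gradient, except Slc43a3. Of the 3 members, 2 fell and Slc43a1 did not pass the test. Slc43a2 had 10658 and 10814 normalized counts in Control and 7329, 6112 and 4734 in Prox1 OE (log2 fold change -0.85, limma adjusted p = 0.013). Slc43a3, the nucleobase carrier, had 4321 and 3939 against 2577, 2388 and 2774 (-0.68, 0.0061). The groups did not overlap in either gene. Without Control replicate 1 they were at -0.86 (0.093) and -0.61 (0.085), and without Control replicate 2 the call on Slc43a2 was lost (-0.84, 0.08). Slc43a1, the branched-chain amino acid carrier of liver, had 119.9 and 139.9 against 128.8, 100.3 and 153.9 (-0.04, 0.91).

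Slc16 carriers move lactate, pyruvate, ketone bodies and aromatic amino acids. Of 11 measured members 5 rose and 1 fell. The fall was in Slc16a3 (ENSMUSG00000025161, chr11:120948480-120960868), the lactate exporter of glycolytic cells, with 2636 and 3161 normalized counts in Control and 434.6, 299.7 and 209.5 in Prox1 OE. The lower Control library was 6.07 times the highest Prox1 OE library, and the log2 fold change came to -3.26 ± 0.28 (SE, limma adjusted p = 0.0018), called without any 1 library. Slc16a1, the lactate carrier of most cells, had 3315 and 4241 against 4736, 4360 and 5342 and did not pass the test (log2 fold change 0.36, limma adjusted p = 0.1; -0.08 with total reads as library size). Per kilobase of exon, Slc16a3 was at 0.662 and 0.62 of Slc16a1 in Control and at 0.0764, 0.0572 and 0.0326 in Prox1 OE.

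Emb and Bsg, the membrane partners that bring Slc16 lactate carriers to the surface, were taken from a list of accessory proteins in which 1 of 4 measured genes fell and the other 3 did not pass the test. That gene was Emb, with 3387 and 3859 against 1520, 1523 and 1194 normalized counts (log2 fold change -1.36, limma adjusted p = 0.0024). Bsg, the partner of Slc16a1 and Slc16a3, was at -0.31 and did not pass the test (0.2), except with total reads as library size (-0.74, 0.0041).

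Slc16a10, the aromatic amino acid carrier of the family, had 883.2 and 1192 against 1749, 2190 and 2969 normalized counts, a log2 fold change of 1.13 ± 0.23 (SE, limma adjusted p = 0.011). Slc16a5 had 253 and 469.6 against 1020, 1172 and 1278 (1.74, 0.0038), and its call was kept without any 1 library. Slc16a7, a pyruvate and lactate carrier, had 1602 and 1811 against 3219, 2723 and 3412 (log2 fold change 0.87, limma adjusted p = 0.0045). In these 3 genes no Prox1 OE value was as low as a Control value. Slc16a11 had 286.7 and 290.7 against 455, 598.2 and 685.1 (0.98, 0.01) and Slc16a9 had 118.3 and 119.5 against 200.4, 203 and 225.7 (0.81, 0.017). Without Control replicate 1 the calls on Slc16a7 (0.78, 0.062), Slc16a9 (0.80, 0.14), Slc16a10 (0.92, 0.1) and Slc16a11 (0.97, 0.091) were lost, and without Control replicate 2 those on Slc16a9 (0.82, 0.12) and Slc16a11 (0.99, 0.07). With total reads as library size Slc16a9 was at 0.38 and not called. Slc16a6, Slc16a12 and Slc16a13 had overlapping groups and log2 fold changes of 0.06, -0.07 and 0.19, and of these Slc16a12 was called lower with total reads as library size (-0.50, adjusted p = 0.025). Slc16a13 lies 371 bases from Slc16a11 on the opposite strand of chromosome 11.

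Of the proton-coupled Slc36 carriers, Slc36a1, which releases small amino acids from lysosomes, had 948.1 and 957 against 1770, 1337 and 1473 normalized counts (log2 fold change 0.67, limma adjusted p = 0.014). It was not called with total reads as library size (0.24) or without Control replicate 1 (0.66, 0.11) or 2 (0.68, 0.089). Slc36a4 was below both Control values in all Prox1 OE libraries at -0.39 and did not pass the test (0.11), but it passed without Prox1 OE replicate 1 (-0.53, 0.02) and with total reads as library size (-0.82, 0.0099).

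**Figure D3:**
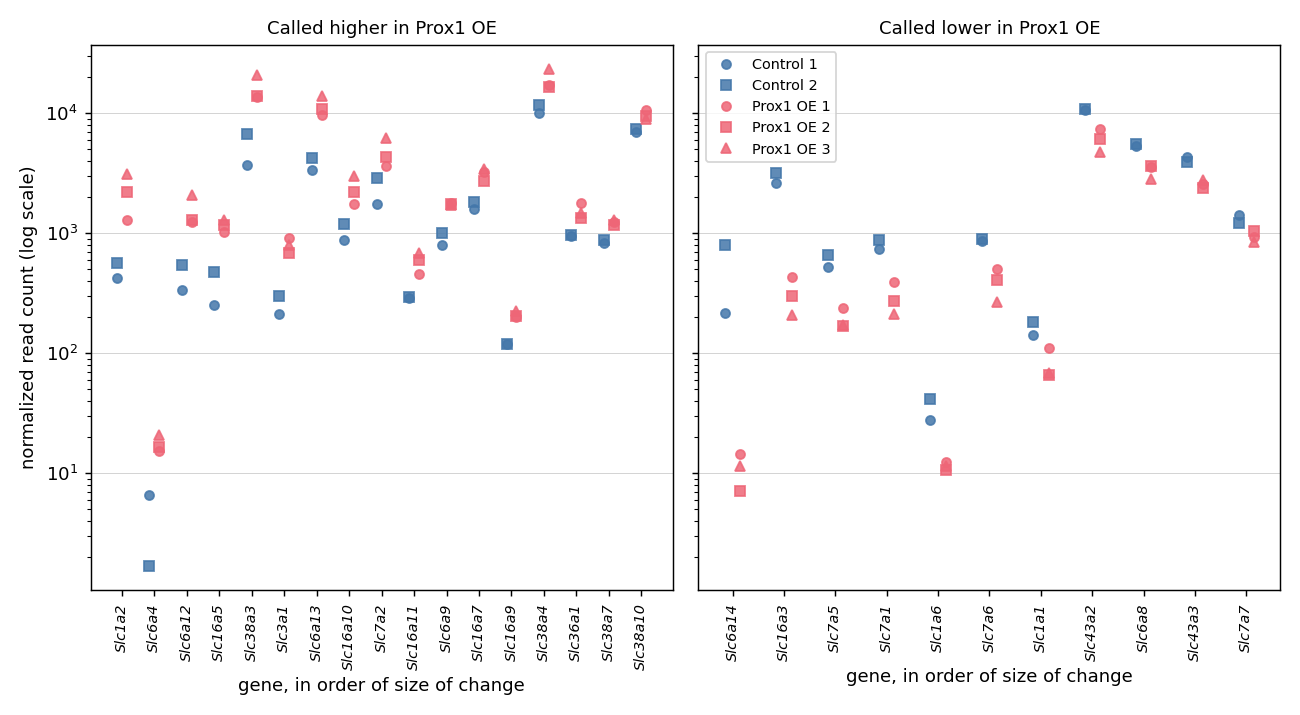
Normalized read counts on a log axis in each of the 5 libraries for the 17 carriers called higher (left) and the 11 called lower (right) in Prox1 OE, in order of the size of the change. Circles, squares and triangles are replicates 1, 2 and 3, and no called carrier has a Prox1 OE value inside the range of its Control values.

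For many carriers the extreme values fell in the same libraries. The matching shares of all genes tested were not counted, so the counts in this paragraph cannot be read as particular to the carriers. Among the 17 higher carriers the highest Prox1 OE value was in replicate 3 for 13 and in replicate 1 for 4, and the lowest was in replicate 1 for 10. Those 10 rose from replicate 1 to 2 to 3, while Prox1 itself fell in that order (48090, 11113 and 8231). A relation of the carriers to the level of Prox1 was not tested. Among the 11 lower carriers the highest Prox1 OE value was in replicate 1 for 8. Control replicate 2 was above Control replicate 1 in 16 of the 17 higher carriers and in 9 of the 11 lower ones. Of the 28 called carriers, 9 stayed called whichever library was left out (Slc3a1, Slc6a9, Slc6a12, Slc6a13, Slc16a5 and Slc38a3 higher, Slc6a14, Slc7a5 and Slc16a3 lower).

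Levels can be set side by side only per length, so normalized counts were divided by the kilobases of exon of each gene. Slc38a4 had the highest level of all carriers in both groups, at 2550 per kilobase in Control and 4420 in Prox1 OE, and Slc6a13 was the next at 1310 and 3940. Slc38a3 moved from rank 9 (977) to rank 3 (3050), while Slc16a3 moved from rank 14 (545) to rank 35 (59.2) and Slc6a14 from rank 25 (147) to rank 48 (3.2). Of the summed level of all carriers, Slc6a13 held 6.49% and 7.21% in Control and 13.3%, 15.2% and 16.1% in Prox1 OE.

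Summed per family, Slc38 carriers went from 5119 and 6212 per kilobase in Control to 9104, 9141 and 12050 in Prox1 OE, a ratio of means of 1.78. Slc6 carriers went from 3208 and 3739 to 5553, 5736 and 6855 (1.74). The 3 Slc43 carriers went from 2050 and 1984 to 1330, 1161 and 1120 (0.597). The sums of Slc1 and Slc16 overlapped between the groups, with ratios of 1.11 and 1.19, and the ratio for Slc7 was 0.917. These sums rest on the size factors and carry no test.

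**Figure D4:**
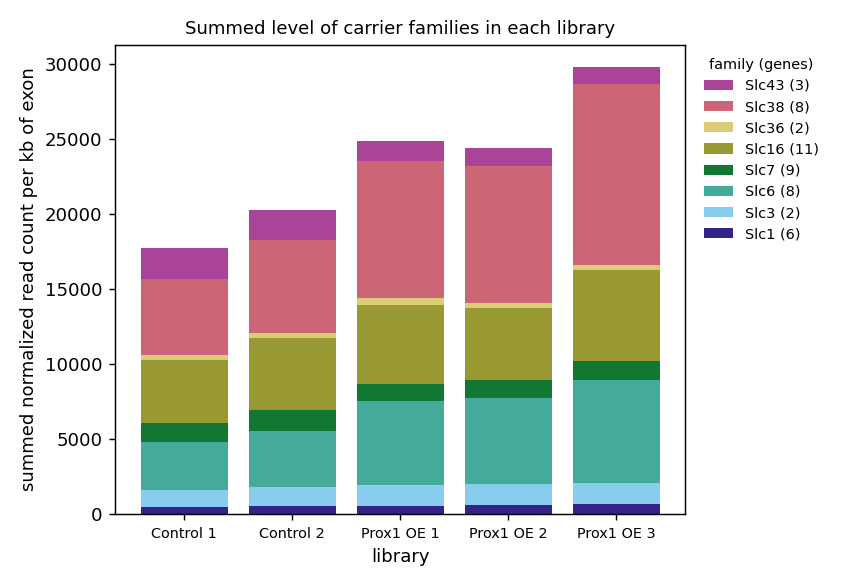
Stacked sums of normalized read counts per kilobase of exon over the carriers of each family, 1 bar per library, with the number of genes in brackets. Totals are 17750 and 20240 in Control, against 24820, 24370 and 29770 in Prox1 OE, and the Slc38 and Slc6 bands account for most of the difference in height.

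Other genes of amino acid transport and use were counted from lists. Like those of cell type markers and lobule zones, these lists were chosen with earlier results of these data known. Of 7 measured peptide, cystine and vesicle carriers, 2 were higher (Slc15a3 at 0.78 and Pqlc2 at 0.50) and 2 lower (Slc15a2 at -1.07 and Slc15a1 at -2.36). Slc15a2, a peptide carrier, had 6592 and 7038 against 3867, 2853 and 3114 normalized counts (limma adjusted p = 0.0033). Neither higher call was kept with total reads as library size (0.35 and 0.07) or without Control replicate 1 (0.77 and 0.36) or 2 (0.79 and 0.64), Pqlc2 also lost its call without Prox1 OE replicate 2 (0.48) or 3 (0.45), and Slc15a1 lost its call without Control replicate 1 (-2.03) or 2 (-2.70) or Prox1 OE replicate 2 (-2.52).

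ATF4 is the transcription factor that cells use to answer amino acid shortage, and several carriers are among its known targets. Of 27 measured genes on a list of other known targets and Atf4 itself, 6 were higher and 6 lower (44.4% called, against 33.3% of all genes tested, with 22.2% in each direction against 17.1% higher and 16.2% lower), with a median log2 fold change of 0.04, and the higher and lower counts were 3 and 11 with total reads as library size 1 and 1 without Control replicate 1, 3 and 2 without Control replicate 2 and 3 and 5 without Prox1 OE replicate 2. Cth, of cysteine synthesis, had 930.8 and 1666 against 5746, 4653 and 8066 normalized counts (log2 fold change 2.27, limma adjusted p = 0.0029). Phgdh, of serine synthesis, had 3269 and 3251 against 1752, 1752 and 1128 (-1.11, 0.0072; -1.10 and 0.065 without Control replicate 1). Asns, of asparagine synthesis, was at -0.51 (0.45; -1.02 and 0.028 without Prox1 OE replicate 1), and Atf4 had overlapping groups at 0.09 (0.76).

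The amino acid response element TGATGNAA, the letters that ATF4 and its partners read, was in windows of 3 of 34 carriers (Slc1a4, Slc7a7 and Slc7a11), 8.82% against 4.51% of all genes with a window. Slc7a11, chosen for display after its matches were seen, holds the letters on both strands, 66 and 47 bases before its start site, in capitals here.
Slc7a11, chr3:50443614-50443763, minus strand: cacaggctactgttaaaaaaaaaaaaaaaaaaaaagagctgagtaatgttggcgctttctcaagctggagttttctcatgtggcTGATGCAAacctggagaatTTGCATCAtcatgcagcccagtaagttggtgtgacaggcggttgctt
Of these 3 carriers Slc7a7 was lower and neither Slc1a4 nor Slc7a11 passed the test.

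Genes that mark the zones of the liver lobule were counted from a periportal and a pericentral list, and both hold genes outside amino acid metabolism. Of 10 periportal genes 7 were higher and 1 lower (Cdh1, -1.16), with a median log2 fold change of 1.92, and of 10 pericentral genes 7 were higher and 3 did not pass the test, with a median of 1.19. Ass1 of the urea cycle had 6650 and 12890 against 48355, 40558 and 67198 normalized counts and rose by 2.46 on the log2 scale (limma adjusted p = 0.0028). The Control libraries lay far apart for Hal, at 274.4 and 793.4 against 2377, 3037 and 5874 in Prox1 OE. Hal, which breaks down histidine, rose by 2.90 (0.0058), and Gls2, the liver glutaminase, by 2.74 (0.0067; 2.03 and 0.053 without Control replicate 1). Glul, the glutamine synthetase of pericentral hepatocytes, had 10166 and 11726 against 26890, 34859 and 53288 normalized counts and rose by 1.75 (0.0043; 1.65 and 0.051 without Control replicate 1). Slc1a2, the glutamate carrier of the same cells, is described above. The count of higher pericentral genes was 3 without Control replicate 1, and that of periportal genes 5.

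The other 26 genes of the 8 families did not reach a mean of 10. Of these, 3 had no read in any library (Slc6a3, Slc6a18 and Slc7a12). The members just inside the limit were Slc6a4 (12.2), Slc1a6 (20.8) and Slc1a3 (22.2), and those just outside were Slc6a16 (9.13), Slc7a15 (6.6) and Slc6a17 (6.37).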

How the data were processed

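Bulk RNA-seq was performed by the authors on 2 Control and 3 Prox1 OE Akt/Notch tumors, with stranded dUTP libraries sequenced as read pairs. Per the labels and the study's methods, reads were mapped to mm10 with STAR and normalized with DESeq2. The counting tool and its use of strand are not given in the sources used here. The deposited signal is the normalized count, that is, reads divided by the size factor of a library. Whole reads were recovered for 100% of values (tolerance 0.01 read), and 3 reads are worth 2.46 to 3.54 normalized counts. A second deposited table holds the authors' comparison (mean, shrunken log2 fold change, p-value, and adjusted p with and without independent hypothesis weighting) and was not used.

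The 17105 genes with a mean normalized count of at least 10 were tested with limma 3.58.1 (R 4.3.3; lmFit, eBayes with trend, two-sided) on log2(normalized count + 1), with Benjamini-Hochberg adjustment over all of them and a threshold of 0.05. This scale understates changes of low genes. A p in brackets after a log2 fold change is the limma adjusted p of the same fit. Alternatives were total reads or TMM factors for scaling, pseudocounts of 0.1 and 10, a mean of at least 50 or no filter, limma with no trend, DESeq2 1.42.0 and edgeR 4.0.16 quasi-likelihood tests on the recovered reads, a replicate block, and each library left out. The procedure was also run on simulated counts, in which far fewer genes changed than were called here, and that run is not used as support.

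Genes with a symbol of the 8 families were counted, and called members were named with all 5 values. A few items are not reported here. Genes outside the families came from lists of accessory proteins, other amino acid transport genes, ATF4 targets, zonation genes and cell type markers. Members and lists were chosen with earlier results of these data known. Symbols, exon lengths and coordinates came from GENCODE on GRCm38, the sequence of mm10 (55137 of 55397 identifiers matched, 99.5%), and promoters from RefSeq GRCm38.p6.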

Additional observations from a re-analysis of the deposited data

How the results depend on the processing

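The counts of carriers, 17 higher and 11 lower, stayed within 1.5 times under TMM factors (17 and 11), pseudocounts of 0.1 and 10 (17 and 11 each), a mean of at least 50 (16 and 10), no filter (15 and 8), edgeR (18 and 11, with 3077 and 2684 of all genes), DESeq2 (20 and 11) and limma without the trend (16 and 9). With total reads as library size they were 11 and 18. Leaving out each library in turn gave 7 to 18 higher and 4 to 12 lower carriers, with 7 and 4 without Control replicate 1, 10 and 4 without Control replicate 2, and 681 and 477 of all genes without Control replicate 1. A fit without 1 Control library assumes that the lone Control sample varies as the Prox1 OE samples do.

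The sign turned with total reads for Slc3a2 (-0.42), Slc7a8 (-0.21), Slc16a1 (-0.08), Slc16a6 (-0.37), Slc16a13 (-0.24), Slc38a6 (-0.03), Slc38a9 (-0.23), Slc38a10 (-0.003) and Atf4 (-0.34). Of these only Slc38a10 had been called. With no filter the calls on Slc1a1 (adjusted p = 0.067), Slc1a6 (0.053), Slc6a4 (0.060), Slc7a7 (0.054) and Slc38a10 (0.057) were lost, and in limma without the trend those on Slc1a1 (0.053), Slc7a2 (0.071), Slc7a7 (0.070) and Slc38a10 (0.074). With 1 library left out it turned for genes that had not been called, whose log2 fold changes ran from -0.05 to 0.08 for Slc3a2, -0.32 to 0.04 for Slc6a6, -0.45 to 0.08 for Slc6a19, -0.02 to 0.15 for Slc16a6, -0.15 to 0.03 for Slc16a12, -0.28 to 0.19 for Slc38a2, -0.19 to 0.12 for Slc43a1 and -0.04 to 0.30 for Atf4. Of 245 values of single carriers with 1 library left out, 189 kept their direction and side of the threshold and 40 lost a call. Of 486 under the other alternatives, 445 kept both.

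The labels repeat replicate numbers across groups without naming a shared mouse or day, and only replicates 1 and 2 have a partner. Deviations from the group means correlated at 0.137 and 0.0156 between same-numbered samples. With 2 Control libraries the Control deviations are equal and opposite, so these values are not independent. They cannot settle whether samples were paired. A fit with the replicate number as a block, in which Prox1 OE replicate 3 has no partner, gave 17 higher and 8 lower carriers. It lost Slc1a1, Slc1a6, Slc6a4 and Slc7a7, gained Slc7a3, called 6 of 8 macrophage markers higher in place of 2, and turned the sign of Slc3a2 (-0.01), Slc6a6 (0.04), Slc6a19 (0.08) and Atf4 (-0.04). The causes of these differences were not tested.

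There were only 2 Control libraries, and Slc6a4, Slc1a6, Slc1a3 and Slc7a11 had means under 50 normalized counts.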
